A study of Homo sapiens with 6 samples.

Results

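The 9 genes of MHC class I antigen presentation examined here were HLA-B, HLA-C, HLA-E and HLA-F (heavy chains), B2M (light chain), TAP1 and TAP2 (peptide transporter), TAPBP (loading chaperone) and NLRC5 (transactivator). They were taken by gene symbol from a table of 58735 genes, with each HLA gene on chromosome 6, and all 9 were among the 15341 genes with enough reads to be tested. The cells were UE7T-9, an established line of human mesenchymal stem cells (MSCs) from bone marrow, grown in DMEM. The 3 control libraries came from UE7T-9 cells labelled wild type. The 3 SRRM4 KO libraries came from UE7T-9 cells infected with a lentiviral CRISPR v2 vector against SRRM4, selected with puromycin and cloned by dilution to 1 cell per well. The KO line is therefore 1 clone, the study describes the loss of SRRM4 protein as incomplete, and an effect of SRRM4 cannot be told apart from a difference between a clone and its parent culture. The study raises lentivirus infection as a possible influence on the UE7T-9 control, but the labels do not say whether the control libraries came from infected cells. Nor is it given that the libraries of a group came from separate cultures, so p-values measure only the spread between these libraries.

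Between 21496117 and 23868323 reads per library were counted on genes. SRRM4 itself had 0 counts in all 6 libraries, so its RNA gave no check of the labels. Control replicate 1 stood apart, with 22403 genes counted against 20613 and 20674 in the other control libraries and 20127 to 20480 in KO, and the calls of named genes that change without it are given both ways. The 6 MSC markers NT5E, ENG, THY1, CD44, PDGFRB and COL1A1 were all detected, with a summed level of 27518 to 30907 CPM (read counts scaled to a common library size by TMM) in control and 12154 to 13828 CPM in KO. Of these, NT5E and CD44 rose and the other 4 fell. COL1A1 made up most of the sum, at a mean of 27881 CPM in control and 11870 CPM in KO. Of the defining markers of other cell types, PTPRC, CD3E and CD68 (haematopoietic), PECAM1 and CDH5 (endothelial) and EPCAM and KRT5 (epithelial) had 3 counts or fewer in every library. Above 3 counts in a library were 3 of 7 haematopoietic genes (CD14, CD34 and ITGAM), 2 of 4 endothelial genes (KDR and VWF) and 2 of 4 epithelial genes (CDH1 and KRT19). The summed levels in control and KO were 20.3 to 21.4 and 17.9 to 20.96 CPM for the haematopoietic list, 9.78 to 11.6 and 3.82 to 4.82 CPM for the endothelial list and 1.06 to 2.60 and 0.404 to 0.575 CPM for the epithelial list, and the part of these marker differences in the class I values was not tested. In bulk RNA, fewer cells that express a gene and less RNA per cell cannot be told apart.

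MHC class I molecules show peptides from the inside of a cell to cytotoxic T cells and natural killer cells. A heavy chain encoded in the MHC on chromosome 6 folds with B2M (beta-2 microglobulin), and the pair is filled in the endoplasmic reticulum with peptides that the proteasome cuts and the TAP1-TAP2 transporter carries in. Tapasin, encoded by TAPBP, holds the empty molecule at the transporter, and NLRC5 drives transcription of the class I genes. MSCs are known to carry class I molecules and to increase them under interferon gamma.

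The promoters of these genes are known to share binding sites for interferon-regulated factors, NF-Y, CREB/ATF and NF-kappa B. To show where the letters of such sites lie, the 250 bases before the RefSeq start (GRCh38.p14) are printed for the 3 genes that changed (HLA-B, TAP1 and TAPBP) and for their partners that did not pass the test (HLA-C, TAP2 and B2M). The windows are HLA-B at chr6:31357180-31357429, HLA-C at chr6:31272093-31272342, TAP1 at chr6:32853705-32853954, TAP2 at chr6:32838740-32838989 and TAPBP at chr6:33314079-33314328, all on the minus strand, and B2M at chr15:44711267-44711516 on the plus strand. They read 5′ to 3′ in the direction of the gene, and capitals mark the letters of the motifs described next.
HLA-B promoter: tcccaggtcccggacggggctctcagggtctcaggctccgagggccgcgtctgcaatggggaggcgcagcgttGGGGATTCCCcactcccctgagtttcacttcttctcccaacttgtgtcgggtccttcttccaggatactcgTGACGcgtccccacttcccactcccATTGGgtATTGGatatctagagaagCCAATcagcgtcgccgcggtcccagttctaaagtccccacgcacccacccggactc
HLA-C promoter: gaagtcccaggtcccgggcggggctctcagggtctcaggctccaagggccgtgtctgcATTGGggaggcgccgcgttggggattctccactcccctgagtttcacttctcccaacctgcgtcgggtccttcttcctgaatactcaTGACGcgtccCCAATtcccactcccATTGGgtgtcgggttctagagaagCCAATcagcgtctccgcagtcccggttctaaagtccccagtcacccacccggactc
TAP1 promoter: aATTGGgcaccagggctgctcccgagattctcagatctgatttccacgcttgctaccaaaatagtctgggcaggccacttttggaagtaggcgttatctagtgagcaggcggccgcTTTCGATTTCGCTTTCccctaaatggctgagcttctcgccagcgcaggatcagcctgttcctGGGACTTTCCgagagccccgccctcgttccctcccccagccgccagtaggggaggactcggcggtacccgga
TAP2 promoter: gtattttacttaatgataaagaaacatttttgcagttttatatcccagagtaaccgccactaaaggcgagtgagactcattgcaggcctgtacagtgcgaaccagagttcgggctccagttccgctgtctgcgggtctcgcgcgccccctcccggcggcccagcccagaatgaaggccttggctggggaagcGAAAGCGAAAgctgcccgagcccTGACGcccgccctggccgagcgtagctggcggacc
TAPBP promoter: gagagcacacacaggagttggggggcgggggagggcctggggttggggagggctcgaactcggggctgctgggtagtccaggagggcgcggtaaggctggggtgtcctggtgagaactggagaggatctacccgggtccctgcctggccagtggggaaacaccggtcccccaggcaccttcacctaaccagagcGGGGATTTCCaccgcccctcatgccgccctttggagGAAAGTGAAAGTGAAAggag
B2M promoter: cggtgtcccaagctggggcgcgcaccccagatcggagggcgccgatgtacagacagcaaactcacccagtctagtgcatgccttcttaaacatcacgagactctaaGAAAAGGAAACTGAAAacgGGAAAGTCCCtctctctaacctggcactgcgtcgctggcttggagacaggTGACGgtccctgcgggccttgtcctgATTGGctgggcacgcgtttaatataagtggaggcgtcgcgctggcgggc

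The motifs searched on both strands were the interferon-stimulated response element (GAAA, any 2 bases, GAAA), the gamma-activated site (TTCNNNGAA), the NF-Y box (CCAAT), the CREB/ATF site (TGACG) and the NF-kappa B site (GGG, any 2 bases, TT, any base, CC), with overlapping matches counted. Windows were given for 7 of the 9 genes, that is all except HLA-E and NLRC5, and TAP1 had windows at 2 starts. The exact interferon-stimulated letters were found in B2M, HLA-F, TAP1, TAP2 and TAPBP, 5 of 7 genes, and in 3.02% of all 35116 windows of this length. They were present in the changed genes TAP1 and TAPBP, and also in TAP2 and B2M. The NF-kappa B letters were found in HLA-B, TAP1, TAPBP and B2M (4 of 7 genes against 5.07% of windows), the NF-Y box in 5 of 7 genes (32% of windows) and the CREB/ATF site in 4 of 7 genes (21.2% of windows). The gamma-activated letters occurred only at the other start of TAP1 (1 of 7 genes against 6.57% of windows). The HLA-B and HLA-C windows were identical at 226 of 254 aligned columns (89.0%), whereas every other pair of the 6 printed windows was at 41.6% to 49.2%. The HLA-B and HLA-C windows both hold the CREB/ATF site and an NF-Y box 56 to 52 bases before the start, while the NF-kappa B letters were matched in HLA-B alone of the pair. A match describes letters in the reference sequence, not binding, and the alleles of UE7T-9 may differ from the reference. Only these exact letters were searched. A gene without a match, such as HLA-B or HLA-C for the interferon-stimulated letters, may still hold a variant form of the site.

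Between SRRM4 KO and control cells, 3 of the 9 genes changed. HLA-B fell, and TAP1 and TAPBP rose, while HLA-C, HLA-E, HLA-F, B2M, TAP2 and NLRC5 did not pass the test. A gene is called changed here where the quasi-likelihood test of edgeR gave a p under 0.05 after Benjamini-Hochberg adjustment across all genes tested. By this rule 41.6% of all genes tested were called, 20.7% higher and 20.9% lower, so 3 of 9 (33.3%) is near the background. The median log2 fold change was -0.02 over the 9 genes and -0.01 over all genes tested. With a log2 fold change beyond 1 also required, 0 of the 9 were called, against 12.6% of all genes tested. DESeq2 also called 0 past that fold, and at an unadjusted p under 0.05 edgeR gave 2 higher and 1 lower gene. The values of the groups did not overlap in the 3 changed genes only, where 51.8% of all genes tested showed no overlap.

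**Figure D1:**
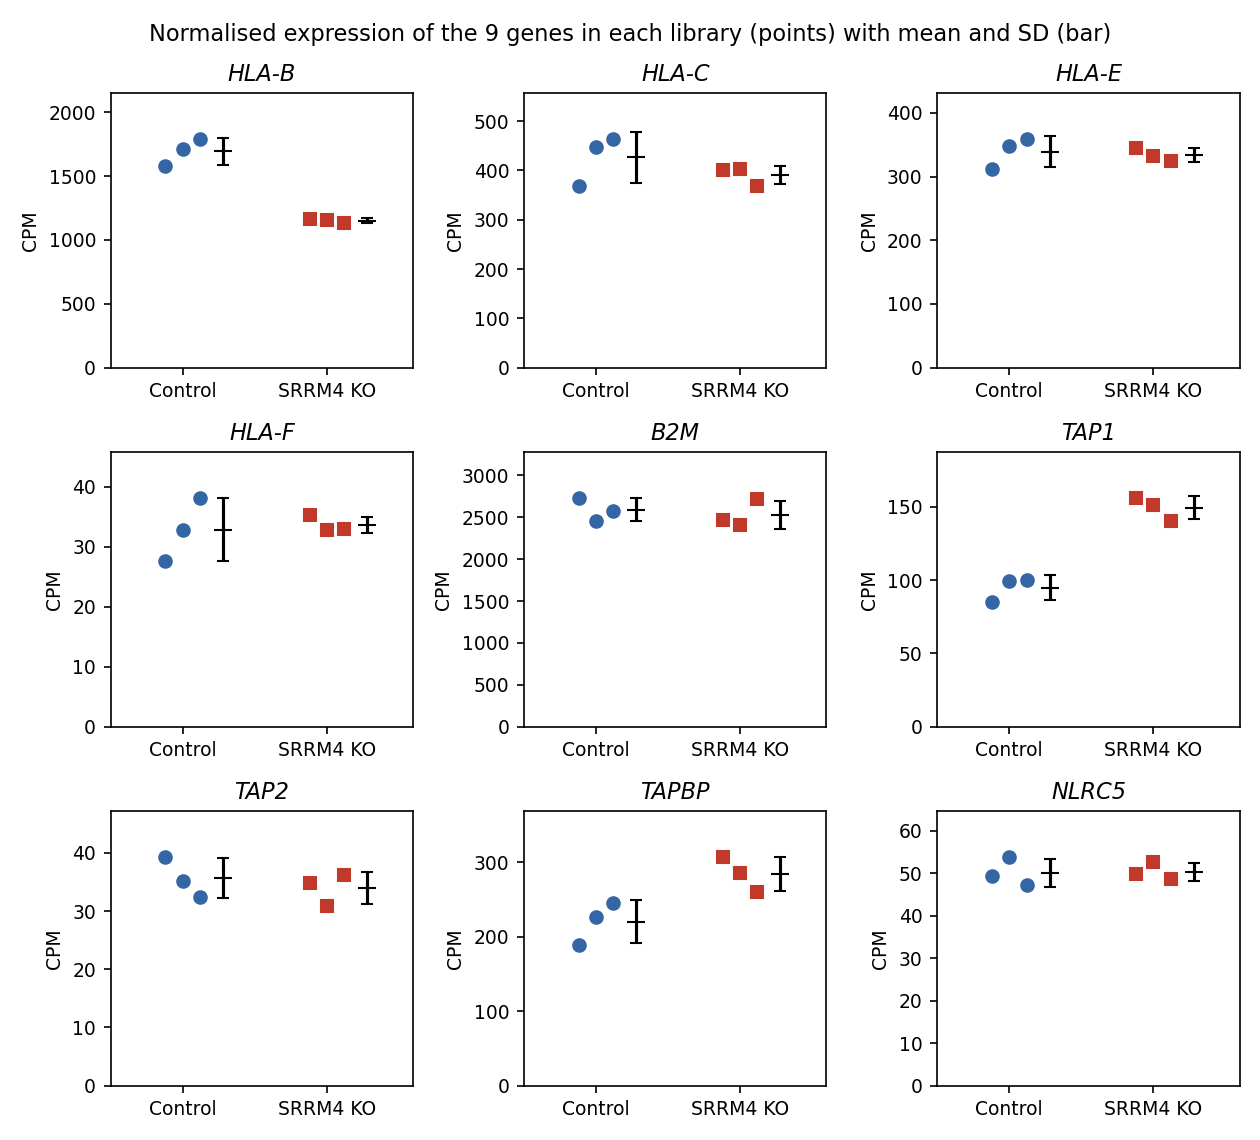
CPM (y axis, from 0) of each of the 9 genes in 3 control libraries (blue circles) and 3 SRRM4 KO libraries (red squares), with mean and SD as black bars. The KO libraries lie below all control libraries for HLA-B, above them for TAP1 and TAPBP, and overlap them for the other 6 genes.

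**Figure D2:**
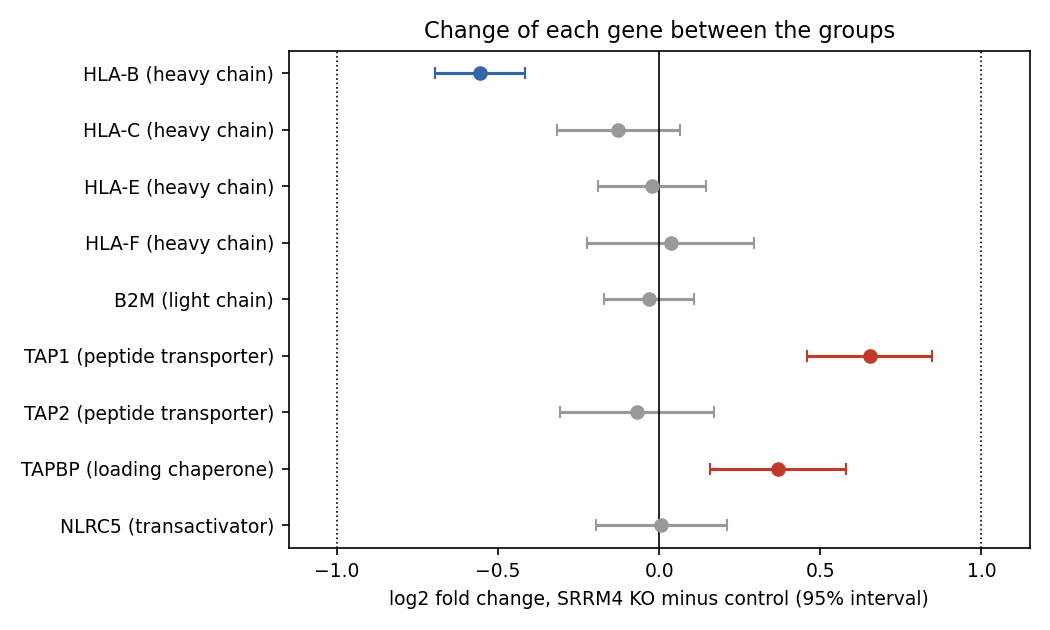
Log2 fold change (SRRM4 KO minus control, x axis) of each gene with its 95% interval, coloured blue where lower, red where higher and grey where the test was not passed. Every interval lies inside a log2 change of 1 in either direction (dotted lines).

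HLA-B, a classical heavy chain that presents peptides to cytotoxic T cells (ENSG00000234745; chromosome 6, 31269491 to 31357188, minus strand, GRCh38), had 34289, 36846 and 39932 counts in control replicates 1 to 3 and 25944, 28206 and 24876 in KO replicates 1 to 3. Every KO library was below every control library. It averaged 1693 ± 105 CPM in control against 1151 ± 18.1 CPM in KO (SD, n = 3 each). The log2 fold change of -0.56 had a standard error of 0.065 and passed the test (edgeR, adjusted p = 6.30e-06). That is 0.680 of the control level, with a 95% interval from 0.617 to 0.748. Leaving out any single library gave log2 fold changes from -0.61 to -0.52.

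HLA-C, the neighbouring classical heavy chain, which is also a ligand of natural killer cell receptors (ENSG00000204525; chromosome 6, 31268749 to 31272130, minus strand), had 7980, 9646 and 10340 counts in control and 8916, 9797 and 8112 in KO. The groups overlapped, at 426 ± 51.0 CPM in control against 390 ± 18.8 CPM in KO (SD, n = 3 each). A log2 fold change of -0.13, with a 95% interval from -0.32 to 0.063, did not pass the test (edgeR, adjusted p = 0.278). Control replicate 1 decided this value. Without it HLA-C was called lower, at -0.22 on the log2 scale (edgeR, adjusted p = 0.00324, where the alternatives ran from 0.00324 to 0.652).

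HLA-E and HLA-F are non-classical heavy chains, and HLA-E carries leader peptides of other class I chains to natural killer cells. HLA-E (ENSG00000204592; chromosome 6, 30489467 to 30494205, plus strand) had 6743, 7505 and 8002 counts in control and 7696, 8072 and 7149 in KO. Its log2 fold change was -0.02, with a 95% interval from -0.19 to 0.14. HLA-F (ENSG00000204642; chromosome 6, 29722775 to 29738528, plus strand) was the least abundant of the 4 heavy chains, at 600, 707 and 850 counts in control against 785, 799 and 727 in KO. Its log2 fold change was 0.04, and its 95% interval, from -0.22 to 0.30, was the widest among the 9 genes. In CPM, HLA-E was at 311, 348 and 359 in control and 345, 331 and 325 in KO, and HLA-F was at 27.7, 32.8 and 38.1 in control and 35.2, 32.8 and 33.0 in KO. For both genes the KO levels lay within the range of the control levels, and changes of the size seen in HLA-B lie outside both intervals.

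B2M, the light chain that all of these heavy chains need (ENSG00000166710; chromosome 15, 44711487 to 44718877, plus strand), had 59137, 52899 and 57577 counts in control and 55002, 58497 and 59809 in KO. It averaged 2587 ± 137 CPM in control against 2529 ± 167 CPM in KO (SD, n = 3 each), which overlapped. Its log2 fold change was -0.03, with a 95% interval from -0.17 to 0.11 that does not reach the value of HLA-B.

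TAP1, an arm of the peptide transporter (ENSG00000168394; chromosome 6, 32845209 to 32853978, minus strand), had 1844, 2146 and 2230 counts in control and 3471, 3685 and 3091 in KO. Every KO library was above every control library. The level rose from 94.8 ± 8.48 to 149 ± 7.88 CPM (SD, n = 3 each), or by 0.65 on the log2 scale with a standard error of 0.091 (edgeR, adjusted p = 3.41e-05). This is a 1.57-fold rise, with a 95% interval from 1.38 to 1.80.

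TAP2, the other arm of the transporter (ENSG00000204267; chromosome 6, 32821833 to 32838780, minus strand), lies next to TAP1 and did not pass the test. It had 851, 759 and 724 counts in control and 777, 753 and 795 in KO. Here the log2 fold change was -0.07, with a 95% interval from -0.31 to 0.17 that lies wholly below that of TAP1. Another gene model of the same strand, AL669918.1, covers 2064 of the 6390 exon bases of TAP2 and 80.2% of the 50-base windows of its principal transcript, and is listed at 0 in every library. How reads in those shared bases were counted is not given in the sources used here, so the level of TAP2 is uncertain.

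TAPBP (ENSG00000231925; chromosome 6, 33299694 to 33314387, minus strand) had 4107, 4874 and 5488 counts in control and 6842, 6957 and 5741 in KO. The lowest KO library, at 261 CPM, was above the highest control library, at 246 CPM. The level rose from 220 ± 28.7 to 285 ± 23.1 CPM (SD, n = 3 each), or by 0.37 on the log2 scale with a standard error of 0.099 (edgeR, adjusted p = 0.00731). This is a 1.29-fold rise, with a 95% interval from 1.12 to 1.49. Without KO replicate 1 the direction was the same but the call was lost, at 0.30 on the log2 scale (edgeR, adjusted p = 0.0587, with 0.000211 to 0.0587 over the alternatives).

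NLRC5, the transactivator of class I promoters (ENSG00000140853; chromosome 16, 56989485 to 57083531, plus strand), had 1072, 1160 and 1056 counts in control and 1111, 1285 and 1070 in KO. It averaged 50.2 ± 3.31 CPM in control against 50.4 ± 2.12 CPM in KO (SD, n = 3 each). Its log2 fold change was 0.01, with a 95% interval from -0.20 to 0.21, so the RNA of the transactivator differed by less than the spread between libraries.

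Ratios of raw counts within a library do not depend on how libraries are scaled. For each read on HLA-C there were 4.30, 3.82 and 3.86 reads on HLA-B in control and 2.91, 2.88 and 3.07 in KO. The ratio of HLA-B to B2M was 0.580, 0.697 and 0.694 in control and 0.472, 0.482 and 0.416 in KO. In both ratios all KO libraries lay below all control libraries, whereas the ratio of HLA-C to B2M overlapped, with 0.135, 0.182 and 0.180 in control against 0.162, 0.167 and 0.136 in KO. For each read on TAP2 there were 2.17, 2.83 and 3.08 reads on TAP1 in control and 4.47, 4.89 and 3.89 in KO, again without overlap. Because the level of TAP2 is uncertain, the size of ratios to TAP2 is uncertain too. The ratio of TAPBP to TAP2 overlapped, with 4.83, 6.42 and 7.58 in control against 8.81, 9.24 and 7.22 in KO, while that of TAPBP to B2M did not, at 0.0694, 0.0921 and 0.0953 against 0.124, 0.119 and 0.0960. The ratio of TAP1 to HLA-B moved furthest of the 12 ratios computed, from 0.0560 ± 0.0022 to 0.130 ± 0.0049 (SD, n = 3), a 2.32-fold difference. The ratios are given as values with no test. By exact permutation (two-sided), groups of 3 cannot give a p below 0.10.

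**Figure D3:**
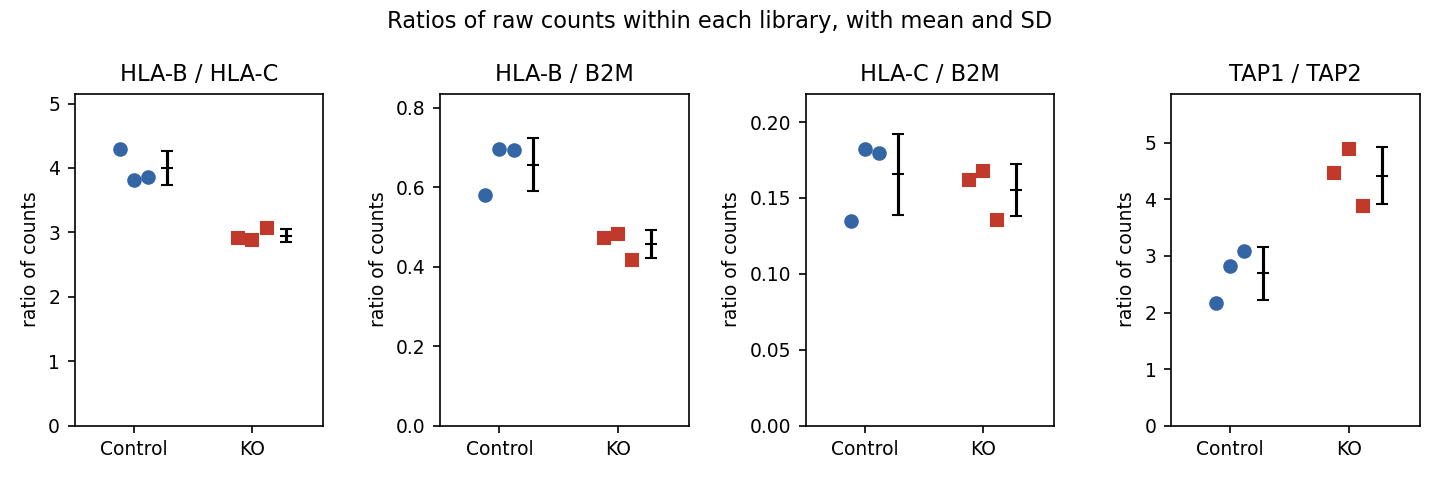
Ratios of raw counts within each library (y axes, from 0) for control (blue circles) and SRRM4 KO (red squares), with mean and SD as black bars. The KO libraries lie below the control libraries for HLA-B over HLA-C and over B2M and above them for TAP1 over TAP2, and the ratio of HLA-C to B2M overlaps between the groups.

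Levels of different genes were compared as CPM per kilobase of gene length. On the length in the table, HLA-B (555 ± 34.4, SD, n = 3) was the highest of the 9 genes in control, above B2M (426 ± 22.5, SD, n = 3), and in KO B2M (416 ± 27.4, SD, n = 3) was above HLA-B (377 ± 5.94, SD, n = 3). This order depends on the length used, because the table gives B2M 6079 bases where its principal transcript has 1705. On the principal transcript B2M was the highest in both groups, at 1517 and 1484 CPM per kilobase against 1095 and 744 for HLA-B. Below them on the table length, in both groups, came HLA-C, HLA-E, TAPBP, TAP1, HLA-F, TAP2 and NLRC5, from 170 down to 4.05 CPM per kilobase in control. On that length no 2 neighbours in this order overlapped between libraries of the same group, in control or in KO. The place of TAP2 in this order is uncertain, as is its level.

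The heavy chains share sequence, so their reads can fit more than 1 gene. Of the 50-base windows of the principal reference transcript, 2.54% were also found in a transcript of another gene for HLA-B, 6.79% for HLA-C, 5.13% for HLA-E and 1.70% for HLA-F, 1.07% for TAP1, and none for B2M, TAPBP and NLRC5. The gene models of HLA-B and HLA-C share 35 exon bases. The antisense gene PSMB8-AS1 shares 456 exon bases with TAP1 and had 29 to 45 counts in a library, and HLA-F-AS1 shares 535 with HLA-F and had 39 to 51, so the counts of these antisense genes were small beside those of the class I genes. Further models on the opposite strand were AL671883.2, which shares 542 exon bases with HLA-B and had 0 to 3 counts, and AL645939.1 and RPL23AP1, which share 701 and 257 with HLA-F and had 0 counts in every library. Without strand, reads from these cannot be told apart from those of HLA-B and HLA-F. The libraries were not stranded, and the part of shared reads in the values was not tested.

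The other genes that supply and load peptides went both ways. Of 16 tested, 5 rose, 2 fell and 9 did not pass the test (median log2 fold change 0.08), so that 43.8% changed against 41.6% of all genes tested. CALR (calreticulin, a chaperone of the loading complex) rose from 1112 to 1844 CPM, or by 0.73 on the log2 scale (standard error 0.075). PDIA3, the oxidoreductase of the same complex, rose by 0.26 on the log2 scale (edgeR, adjusted p = 0.00639). SEC61A1, a channel of the endoplasmic reticulum, rose by 0.24 (edgeR, adjusted p = 0.0107), and its call was lost without KO replicate 1 or KO replicate 2 (adjusted p up to 0.0661). These 2 genes were chosen after their values were seen. The cytosolic peptidases NPEPPS (log2 fold change 0.83) and THOP1 (0.67) also rose. ERAP1, which trims peptides in the endoplasmic reticulum, had 3671, 3117 and 3395 counts in control against 2091, 2456 and 2226 in KO and fell by 0.66 on the log2 scale. The cytosolic peptidase TPP2 fell by 0.42.

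The proteasome genes that changed were all higher. Of 20 tested, 9 rose (45%, against 20.7% of all genes tested) and 0 fell (against 20.9%), with a median log2 fold change of 0.24. At an unadjusted p under 0.05 edgeR gave 10 higher and 0 lower, while DESeq2 gave 9 and 0. Among the 5 genes of the immunoproteasome, the form of the proteasome made under interferon gamma, the regulator subunits PSME1 (log2 fold change 0.51) and PSME2 rose. PSME2 had 1141, 1128 and 1029 counts in control and 2062, 2046 and 1853 in KO, or 0.79 higher on the log2 scale (standard error 0.094). The catalytic subunits did not pass the test, at log2 fold changes of 0.07 for PSMB8, -0.34 for PSMB9 and -0.37 for PSMB10. Control replicate 1 had 348 counts of PSMB9 and 87 of PSMB10, against 512 to 537 and 217 to 255 in the other control libraries. Without it both were called lower, at -0.51 and -0.71 on the log2 scale (edgeR, adjusted p = 0.00358 and 0.00405). PSMB10 shares 644 exon bases (34.8%) with AC040162.1 on the same strand, so its counts are uncertain. PSMB8 shares 618 (20.6%) with PSMB8-AS1 on the opposite strand, which had 29 to 45 counts in a library. Of the 11 core subunits 7 rose, led by PSMA7 (0.45), PSMA4 (0.42) and PSMB2 (0.37), and the count was 4 without KO replicate 2. Of the 4 genes listed as constitutive 0 were called by edgeR or DESeq2, and 1 was higher at an unadjusted p under 0.05. That gene, PSMB5, chosen after its values were seen, was called higher without control replicate 2 and with no filter on low counts.

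Of the genes that regulate class I transcription, most did not pass the test. Among 14 promoter factors 3 rose and 2 fell, so that 35.7% changed against 41.6% of all genes tested. RFX5, a subunit of the factor that binds the X box of MHC promoters, rose by 0.41 on the log2 scale, and its partner RFXAP fell by 0.52. NFYA (0.47) and NFKB2 (0.30) rose, and CREB1 (-0.38) fell. The calls of RFXAP and NFKB2 were lost in 4 and 5 of the 6 fits that left out a library. RFXAP was at an adjusted p of 0.0972 without control replicate 1, and was also lost without control replicate 2, KO replicate 1 or KO replicate 3. NFKB2 was at 0.124 without KO replicate 2 and among these fits kept its call only without control replicate 2 (adjusted p by edgeR). IRF1 had 250, 280 and 249 counts in control and 356, 351 and 287 in KO, and did not pass the test (log2 fold change 0.28, although the groups did not overlap). It shares 1716 exon bases (22.0%) with C5orf56 on the opposite strand, so its counts are uncertain without strand. Of 9 tested genes of interferon gamma signalling, 1 fell and 0 rose (11.1% changed, against 41.6% of all genes tested), with the same counts by DESeq2, and edgeR gave 2 lower and 0 higher at an unadjusted p under 0.05. The gene that fell was the receptor chain IFNGR1, at -0.40 on the log2 scale, and without KO replicate 2 it was no longer called (edgeR, adjusted p = 0.0575). IFNG itself had 0 counts in every library, which allows up to between 0.123 and 0.139 CPM, covering counting error only.

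**Figure D4:**
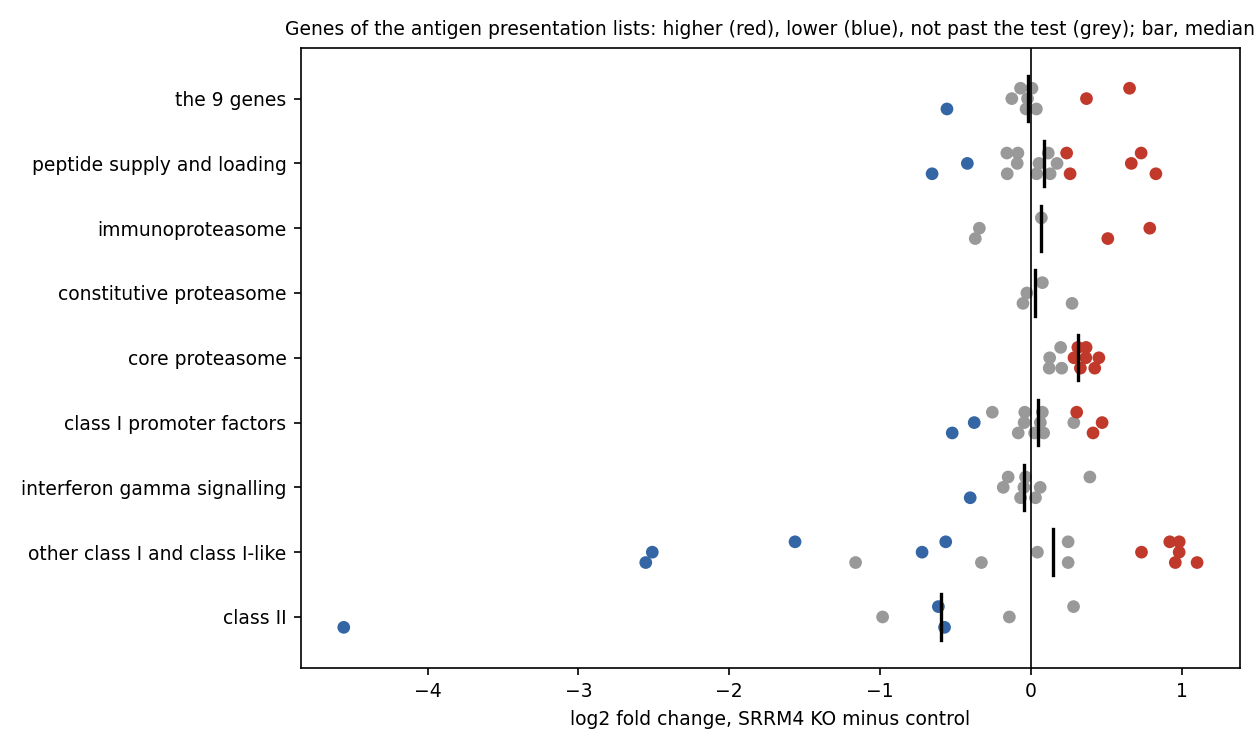
Log2 fold change (SRRM4 KO minus control, x axis) of every tested gene of the 9 antigen presentation genes and of each pathway list (rows), red where higher, blue where lower and grey where the test was not passed, with black bars at the medians. The changed core proteasome genes lie on the higher side, and the class I-like and class II lists hold the furthest points.

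Among other class I and class I-like genes, some differences passed a log2 fold change of 1. Of 16 tested, 6 rose and 5 fell (68.8% changed, against 41.6% of all genes tested), with 1 higher and 3 lower past a log2 fold change of 1, where 12.6% of all genes tested lay. FCGRT, the heavy chain of the neonatal Fc receptor, which also pairs with B2M, fell from 117 ± 11.8 to 19.9 ± 2.45 CPM (SD, n = 3 each), which is -2.55 on the log2 scale with a standard error of 0.12 (edgeR, adjusted p = 2.69e-10). MR1, which presents microbial metabolites and pairs with B2M as well, fell by 0.72 on the log2 scale, and ULBP1, a ligand of the activating receptor NKG2D, fell by 1.56. Higher were PROCR (log2 fold change 0.98), the pseudogene HLA-L (1.10), at 30, 46 and 35 counts in control against 92, 75 and 82 in KO, and RAET1E (0.98). RAET1E lost its call in 4 of the 6 fits that left out a library, namely without control replicate 2, control replicate 3, KO replicate 2 or KO replicate 3 (edgeR, adjusted p up to 0.142). It shares 1050 of its 3004 exon bases with AL355312.5 on the same strand, so its counts are uncertain. The NKG2D ligands MICA and MICB, chosen after their values were seen, rose by 0.96 and 0.73 on the log2 scale. MICA had 1067, 1394 and 1410 counts in control and 2515, 2850 and 2504 in KO.

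Class II genes, which use some of the same promoter factors, were low in number of reads. Of 14 genes 6 had enough reads to be tested, of which 3 fell and 0 rose (50% lower, against 20.9% of all genes tested), with the same counts by DESeq2 and at an unadjusted p under 0.05. HLA-DMA, which edits the peptides of class II molecules, fell by 0.61 on the log2 scale, and the protease CTSS fell by 0.57. The call of CTSS was lost without control replicate 1, KO replicate 1 or KO replicate 2 (edgeR, adjusted p up to 0.0627). CD74, the invariant chain, was chosen after its values were seen and had 18, 26 and 55 counts in control and 4, 0 and 0 in KO. CIITA, the class II transactivator, had 27, 28 and 16 counts in control and 8, 22 and 8 in KO and did not pass the test. HLA-DRA had 7, 11 and 9 counts in control and 0, 4 and 1 in KO, and was not tested.

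Of the 9 genes, 7 lie in the MHC region of chromosome 6 (its tested genes run from 28903002 to 33457541 in GRCh38). Among the 115 other tested genes of this region, 35 rose (30.4%, against 20.7% of all genes tested) and 8 fell (6.96%, against 20.9%), with a median log2 fold change of 0.21, and the other 72 did not pass the test. On the rest of chromosome 6, 167 of 673 tested genes rose (24.8%) and 110 fell (16.3%), with a median of 0.08. Without control replicate 1 the number that rose there was 211. The neighbours with the largest rises were HCP5 (log2 fold change 2.56), a long noncoding RNA that shares 62 exon bases with MICA, KIFC1 (1.64), a mitotic kinesin, and TCF19 (1.41). TNXB, which encodes the matrix protein tenascin-X, fell by 2.92 on the log2 scale, PRRT1 fell by 1.46 and HLA-DMA fell by 0.61. The number of genes that fell in the region was 5 without control replicate 2 or without KO replicate 3.

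**Figure D5:**
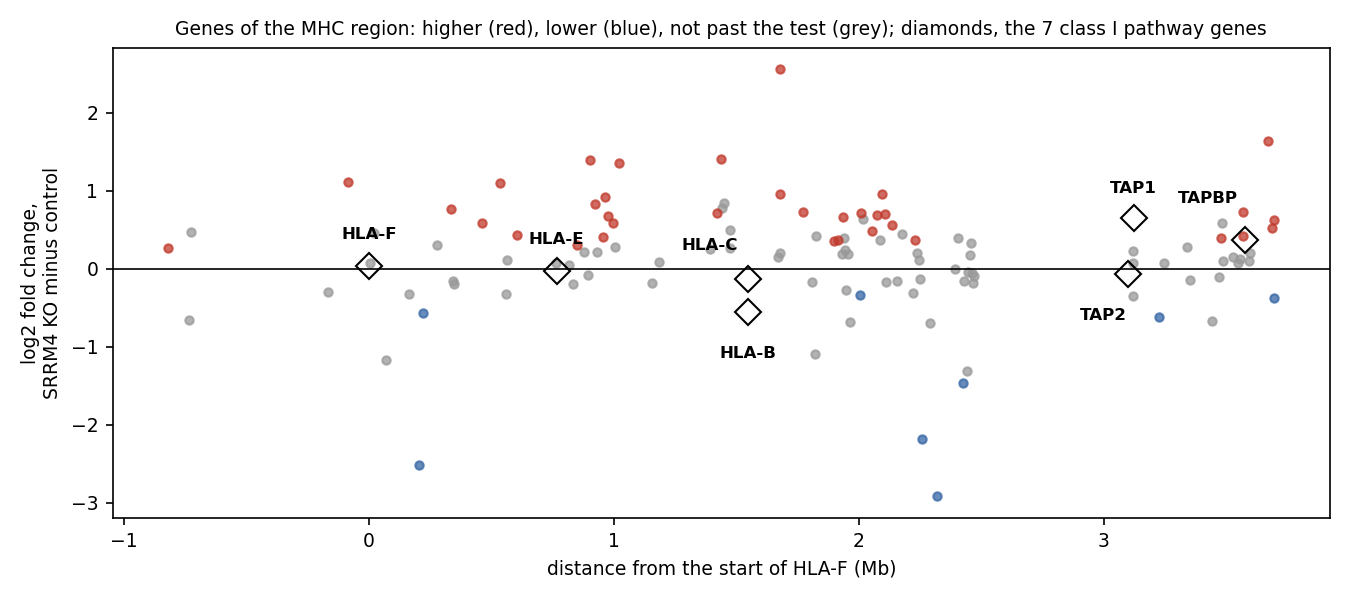
Log2 fold change (SRRM4 KO minus control, y axis) of the tested genes of the MHC region against their distance from the start of HLA-F in megabases (x axis), red where higher, blue where lower and grey where the test was not passed, with black diamonds for the 7 class I pathway genes. HLA-B lies below 0 next to HLA-C, and TAP1 lies above its neighbour TAP2.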

How the data were processed

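RNA of 3 control and 3 SRRM4 KO libraries was measured by non-stranded mRNA-seq, and samples were grouped by their titles. The values deposited by the authors are raw read counts for each gene, not normalized, beside a gene length in bases. The submitters' processing notes name HISAT2 2.0.5, featureCounts 1.5.0-p3 and DESeq2 without saying how they were set. All 58735 gene IDs were found in GENCODE release 29 (GRCh38), 58724 with the same start and end, including all 9 genes.

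Counts were tested with edgeR 4.0.16 in R 4.3.3 (TMM, filterByExpr, default prior count, quasi-likelihood test, no covariate), with Benjamini-Hochberg adjustment over 15341 genes. CPM uses TMM-scaled library sizes, and 95% intervals come from the log2 fold change and its F statistic. No 2 libraries of a group differed by as little as sampling noise (chi-square per degree of freedom from 4.93 to 21.4). Promoter windows were aligned with Biopython 1.88. Procedures were tested on simulated counts.

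Settings tried in turn were normalization by upper quartile or by the size factors of DESeq2, a filter of 10 counts in each library or none, a replicate block, each library left out, DESeq2 1.42.0, a test against 2-fold, protein-coding genes and, for levels, other gene lengths. The principal transcript length, the alternatives of the sublists and those of single list genes were added after seeing the data.

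The 9 genes and the lists were chosen with earlier results of these data known. The genes named are the 9, at most 3 per list and direction with the largest change among called genes averaging 20 counts or more, and PSMB8, PSMB9, PSMB10, IRF1, CIITA, HLA-DRA and SRRM4. IFNG and the cell type markers are named as checks, and PDIA3, SEC61A1, PSMB5, MICA, MICB and CD74 lie outside this rule and were chosen after their values were seen. Some genes of the lists and of this rule are not reported here.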

Additional observations from a re-analysis of the deposited data

How the results depend on the processing

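The fall of HLA-B and the rise of TAP1 kept their direction and their call under all 13 alternatives that test for any change, as did that of TAPBP except without KO replicate 1. With each library left out, the number of the 9 genes called higher ran from 1 to 2 and lower from 1 to 2, that of the proteasome list called lower ran from 0 to 2, and that of the other MHC region genes called lower ran from 5 to 11. The log2 fold change ran from -0.22 to -0.065 for HLA-C, -0.083 to 0.017 for HLA-E, -0.075 to 0.15 for HLA-F, -0.10 to 0.0056 for B2M, -0.13 to 0.0042 for TAP2, 0.27 to 0.45 for TAPBP, -0.036 to 0.057 for NLRC5 and -0.063 to 0.16 for PSMB8. The log2 fold change of NLRC5 was -0.024 with upper-quartile normalization, -0.012 with at least 10 counts in every library and -0.0087 with protein-coding genes only. HLA-E, HLA-F, B2M, TAP2, NLRC5 and PSMB8 passed the test in none of these fits, and the cause of the turns in sign was not tested. In the test against a 2-fold change, 0 genes were higher and 0 lower, with HLA-B at -0.56, TAP1 at 0.65 and TAPBP at 0.37, since that test asks for more than a log2 change of 1.

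On the length of the principal transcript, levels in CPM per kilobase in control and KO were 1095 and 744 for HLA-B, 278 and 254 for HLA-C, 130.4 and 128 for HLA-E, 20.1 and 20.6 for HLA-F, 1517 and 1484 for B2M, 32.1 and 50.4 for TAP1, 14.3 and 13.6 for TAP2, 117 and 151 for TAPBP and 7.36 and 7.39 for NLRC5, because each of these transcripts is shorter than the length in the table. The exon union of the annotation gave the same lengths as the table.

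Deviations of libraries with the same replicate number had correlations of -0.11, 0.13 and -0.14, and those of other pairs ran from -0.21 to 0.28. The labels do not say whether the numbers pair libraries. Deviations from means of 3 libraries cannot decide it. With the replicate number as a block, the log2 fold changes of HLA-B, TAP1 and TAPBP were -0.56, 0.66 and 0.37, and the calls of the 9 genes were the same. NFKB2 and RAET1E lost their calls under the block, and PSMB5 gained one. Over all 13 alternatives, the leave-out fits and the block included, NFKB2 lost its call in 7. The intervals rest on 3 libraries a group and on a spread that edgeR shares across genes, with 14.8 degrees of freedom for each gene.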
